A study of Mus musculus with 8 samples.

Results

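Metallothioneins and zinc transporters, the proteins that bind zinc in the cell and move it across membranes, were followed in the right cerebral cortex of hypoperfused mice through 6 genes, Mt1, Mt2, Mt3, Slc30a1, Slc30a3 and Slc39a14. The genes were chosen by their symbols from the 54752 genes in the count tables. Of the 6 genes, 5 had enough counts to be among the 17136 genes tested, and Mt2 did not. RNA-seq was performed on 8 adult male wild-type C57BL/6 mice (C57BL/6 J in the methods), 4 with bilateral carotid artery stenosis (BCAS) and 4 with sham surgery, and the cortex was taken 3 weeks after surgery. BCAS mice carried a microcoil around each common carotid artery, with the narrower coil on the right, and sham mice underwent the operation without coils. Each library came from 1 mouse, so the groups differ in surgery alone as far as the labels tell, and the tissue is a mixture of all cortical cell types. Because the tissue was sequenced in bulk, fewer cells of a type and less RNA per cell cannot be told apart in any value below.

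Metallothioneins are small, cysteine-rich proteins whose thiol groups bind zinc and copper. Their genes Mt1 and Mt2 are induced by metals, glucocorticoids and inflammatory signals, and in the brain they are known chiefly from astrocytes, whereas Mt3 is the brain-enriched member. The Slc30a genes encode ZnT proteins, which move zinc out of the cytosol, and the Slc39a genes encode ZIP proteins, which move it in. ZnT1 (Slc30a1) exports zinc through the plasma membrane, ZnT3 (Slc30a3) fills the synaptic vesicles of a class of glutamatergic neurons with zinc, and ZIP14 (Slc39a14) takes up zinc, iron and manganese.

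The coding sequences of the metallothioneins are shown because their cysteine codons define the family and because their likeness bears on how surely each gene can be counted. They were read from the GENCODE vM21 transcripts with a consensus coding sequence, on the plus strand of chromosome 8 (mm10), with cysteine codons in capitals.
Mt1: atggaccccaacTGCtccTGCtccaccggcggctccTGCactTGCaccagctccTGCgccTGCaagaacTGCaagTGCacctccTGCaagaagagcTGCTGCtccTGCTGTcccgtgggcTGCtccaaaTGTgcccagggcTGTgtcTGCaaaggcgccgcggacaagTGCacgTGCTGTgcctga
Mt2: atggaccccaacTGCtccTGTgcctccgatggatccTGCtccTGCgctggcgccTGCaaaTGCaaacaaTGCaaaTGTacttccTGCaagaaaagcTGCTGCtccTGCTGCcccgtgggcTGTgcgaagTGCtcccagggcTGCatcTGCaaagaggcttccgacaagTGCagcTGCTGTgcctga
Mt3: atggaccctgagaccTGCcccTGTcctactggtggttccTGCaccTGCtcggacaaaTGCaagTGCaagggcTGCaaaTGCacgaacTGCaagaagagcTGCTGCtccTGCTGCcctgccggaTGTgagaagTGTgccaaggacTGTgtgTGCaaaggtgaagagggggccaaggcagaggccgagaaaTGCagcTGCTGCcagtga
Mt1 and Mt2 each have 61 codons before the stop, of which 20 (32.8%) encode cysteine, and Mt3 has 68 codons, of which 20 (29.4%) encode cysteine. The Mt1 and Mt2 coding sequences were identical at 79.2% of 183 aligned bases, with a longest identical run of 20 bases. Mt3 was identical to Mt1 at 73.2% and to Mt2 at 74.9% of the aligned bases, with longest runs of 27 and 20 bases, and 21 of its bases had no partner in either.

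The regions before the annotated transcription start of Mt1 and Mt2 are shown because both genes are known targets of MTF-1, the zinc-sensing transcription factor that binds metal response elements. The 250 bases come from RefSeq (GRCm38.p6), at chr8:94178839-94179088 for Mt1 and chr8:94172368-94172617 for Mt2, both on the plus strand. Capitals mark the core of the metal response element, searched on both strands as TGCACNC and TGCGCNC.
Mt1: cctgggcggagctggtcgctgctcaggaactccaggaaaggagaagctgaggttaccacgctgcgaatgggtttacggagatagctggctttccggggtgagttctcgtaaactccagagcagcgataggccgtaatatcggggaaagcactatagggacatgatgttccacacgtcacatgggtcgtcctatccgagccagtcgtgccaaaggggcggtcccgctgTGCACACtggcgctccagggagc
Mt2: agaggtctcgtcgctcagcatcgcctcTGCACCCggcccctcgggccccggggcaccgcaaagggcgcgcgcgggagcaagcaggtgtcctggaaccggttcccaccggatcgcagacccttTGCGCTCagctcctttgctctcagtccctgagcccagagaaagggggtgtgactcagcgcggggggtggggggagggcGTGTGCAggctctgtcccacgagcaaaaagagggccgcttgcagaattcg
Further matches lay in the first 29 bases after the annotated start of Mt1, at chr8:94179089-94179117. Whether transcription begins at the annotated start was not tested, so these bases may lie before the start in use.
Mt1 after the start: tcTGCACTCcgcccgaaaagTGCGCTCgg
In windows of 300 bases, 250 before and 50 after the start, Mt1 had 3 matches, Mt2 had 4, Slc30a1 had 2 and Mt3 had 1. Of its 2 annotated starts, Slc30a3 had 1 match at the upstream one and 0 at the other, which says no more than that these letters are not in that window. Among 32851 promoter windows of the same length, 25.7% held at least 1 match, 7.11% at least 2, 1.97% at least 3 and 0.518% at least 4. These matches are descriptions of the sequence, and binding was not measured here.

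Total counts ranged from 16759364 to 21794435 per library, and 3 counts, the level that a count of 0 allows, corresponded to 0.138 to 0.179 CPM (counts per 1000000 counts of the library). Expression is given as CPM after TMM scaling, with SD over the 4 mice of a group. All 11 markers of excitatory cortical neurons were tested, as were 9 of 9 striatal neuron markers. Sham mouse 3 stood apart in choroid plexus markers, with a summed level of 1358 CPM against 297 to 338 CPM in the other sham mice. BCAS mouse 2 was the closest to sham mice in microglial markers, at 1644 CPM against 2937 to 5973 CPM in the other BCAS mice and 419 to 504 CPM in sham mice. Striatal neuron markers summed to 889 CPM in BCAS mouse 4 against 423 to 449 CPM in the other BCAS mice, and to 552 CPM in sham mouse 2 against 288 to 397 CPM in the other sham mice. In BCAS mice, 19.2% of all tested genes rose and 12.8% fell past the threshold, an adjusted p under 0.05 (edgeR's quasi-likelihood test, Benjamini-Hochberg adjustment), or 32.0% in either direction.

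Of the 5 tested genes, 2 passed this threshold, Mt1 and Slc39a14, both higher in BCAS mice, while Mt3, Slc30a1 and Slc30a3 did not pass. The same 2 genes had groups that did not overlap, as 34.8% of all tested genes did. In this fit neither exceeded an absolute log2 fold change of 1, which 12.2% of all tested genes did together with the adjusted p. With so large a share of all genes called, 2 of 5 is not a result particular to this group of genes. The count was 1 when any of the 4 sham mice or BCAS mouse 1, 3 or 4 was left out, since Slc39a14 then lost its call, and 3 without BCAS mouse 2, when Slc30a3 gained one.

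**Figure D1:**
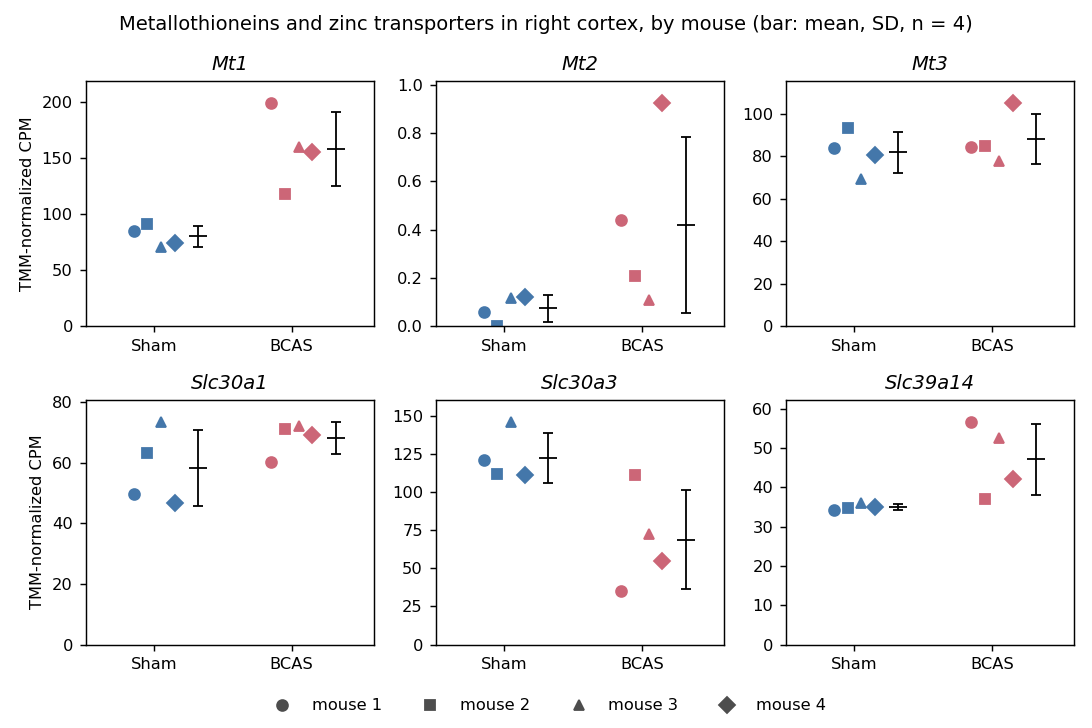
Expression of the 6 genes in each mouse, as TMM-normalized CPM on a linear axis that starts at 0 and has its own range for each gene. Points are mice, with the symbol giving the mouse number within its group, and bars are mean and SD (n = 4). Mt1 lies between 70.8 and 91.1 CPM in sham and between 118 and 199 CPM in BCAS mice, whereas the groups overlap for Mt2, Mt3, Slc30a1 and Slc30a3.

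Mt1 (ENSMUSG00000031765.8) lies at chr8:94179082-94180327 on the plus strand, and none of its 1246 exon bases is shared with another gene. Sham mice 1 to 4 showed 85.4, 91.1, 70.8 and 74.2 CPM, against 199, 118, 160 and 156 CPM for BCAS mice 1 to 4. All BCAS mice were above all sham mice, with BCAS mouse 1 highest and BCAS mouse 2 nearest to the sham range. The mean rose from 80.4 ± 9.51 to 158 ± 33.4 CPM (SD, n = 4 each), a ratio of 1.97. The log2 fold change was 0.98 with a standard error of 0.16 (edgeR's quasi-likelihood test, adjusted p = 0.00412). The call was kept under each alternative setting and without each mouse, with log2 fold changes of 0.86 to 1.11. It exceeded a log2 fold change of 1 with the library size alone (1.07) and when sham mouse 1 (1.00), sham 2 (1.04) or BCAS 2 (1.11) was left out.

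Slc39a14 (ENSMUSG00000022094.15, chr14:70303469-70351425, minus strand) was higher by a smaller margin. Its level was 34.2, 34.8, 36.0 and 34.95 CPM in sham mice 1 to 4 and 56.7, 37.1, 52.7 and 42.1 CPM in BCAS mice 1 to 4. The sham mice were nearly alike, and every BCAS mouse was above them, although BCAS mouse 2 exceeded the highest sham mouse by little. The mean rose from 34.99 ± 0.776 to 47.2 ± 9.11 CPM (SD, n = 4 each), with a log2 fold change of 0.43 and a standard error of 0.13 (edgeR's quasi-likelihood test, adjusted p = 0.0365). This call lay near the threshold. The adjusted p was between 0.0517 and 0.0964 when any mouse other than BCAS mouse 2 was left out, and 0.00386 without that mouse. The log2 fold change was 0.41 to 0.44 without single sham mice and 0.34 to 0.54 without single BCAS mice.

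Mt3 (ENSMUSG00000031760.9, chr8:94152607-94154146, plus strand) did not pass the test. It had 83.8, 93.0, 69.3 and 80.6 CPM in sham mice 1 to 4 and 84.4, 84.9, 77.6 and 104.8 CPM in BCAS mice 1 to 4. Apart from BCAS mouse 4, the BCAS mice lay within the sham range. The means were 81.7 ± 9.80 and 87.9 ± 11.8 CPM (SD, n = 4 each), and the log2 fold change of 0.11 had an unadjusted 95% interval of -0.13 to 0.34 (edgeR's quasi-likelihood test, adjusted p = 0.505).

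Slc30a1 (ENSMUSG00000037434.7, chr1:191906767-191913247, plus strand) shares 8.92% of its exon bases with 1700034H15Rik on the opposite strand. Its level was 49.6, 63.2, 73.6 and 46.6 CPM in sham mice and 60.4, 71.1, 72.1 and 69.3 CPM in BCAS mice. Sham mouse 3 was the highest of the 8 mice, so the groups overlapped. The log2 fold change of 0.23 had an unadjusted 95% interval of -0.06 to 0.52 (edgeR's quasi-likelihood test, adjusted p = 0.244). Leaving out single mice gave 0.13 (without sham mouse 4) to 0.36 (without sham mouse 3), and Slc30a1 passed in none of these fits. The gene for MTF-1 itself, Mtf1, had 30.4 ± 1.28 CPM in sham and 31.1 ± 1.16 CPM in BCAS mice (SD, n = 4 each, adjusted p = 0.752).

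Slc30a3 (ENSMUSG00000029151.14, chr5:31086106-31108237, minus strand) had 120.8, 111.7, 146.1 and 111.0 CPM in sham mice 1 to 4 and 35.3, 111.5, 72.8 and 54.9 CPM in BCAS mice 1 to 4. BCAS mice 1, 3 and 4 were below every sham mouse, whereas BCAS mouse 2 lay within the sham range. The means were 122 ± 16.5 and 68.6 ± 32.4 CPM (SD, n = 4 each), with a log2 fold change of -0.83 and a standard error of 0.30, which narrowly missed the threshold (edgeR's quasi-likelihood test, adjusted p = 0.0575). It passed with DESeq2 (adjusted p = 0.0214), limma-voom (adjusted p = 0.0457), limma on log2(CPM + 1) (adjusted p = 0.0373) and without a filter on low counts (adjusted p = 0.0499). Without BCAS mouse 2, the log2 fold change was -1.16 (adjusted p = 0.00314).

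Mt2 (ENSMUSG00000031762.7, chr8:94172664-94173568, plus strand) was almost uncounted. It had 1, 0, 2 and 2 counts in sham mice 1 to 4 and 10, 4, 2 and 17 counts in BCAS mice 1 to 4, or 5 against 33 counts in all, beside 1231 to 4548 counts of Mt1 per library. BCAS mouse 3 had no more counts than sham mice 3 and 4, so the groups overlapped. Against the level of 3 counts per sham library, the BCAS mean of 0.419 ± 0.364 CPM (SD, n = 4) was 2.36-fold higher. As a lower bound this covers counting error in sham mice only, and not the spread between BCAS mice. BCAS mouse 4 carried much of this bound, which was 1.41-fold without it. The difference in mean CPM did not pass an exact two-sided permutation test over the 70 arrangements of the mice (p = 0.0857, where the smallest possible p is 0.0286). When genes with few counts were kept in edgeR's quasi-likelihood test, the adjusted p of Mt2 was 0.0925.

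The annotation places the antisense gene Gm45774 over most of Mt2. Gm45774 (ENSMUSG00000110588.1) is a single exon of 2665 bases at chr8:94170748-94173412 on the minus strand. It covers 432 of the 588 exon bases of Mt2 (73.5%) and 171 of its 183 coding bases (93.4%), and leaves only the last 156 bases of Mt2 to Mt2 alone. The recorded counting call gave no strand option and no option for reads on more than 1 gene, so a read pair in the shared bases could be given to neither gene. Gm45774 itself had 18 counts in sham and 34 counts in BCAS mice. The part of the overlap in the low count of Mt2 was not tested, and its level cannot be compared with that of Mt1 or Mt3 here.

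**Figure D2:**
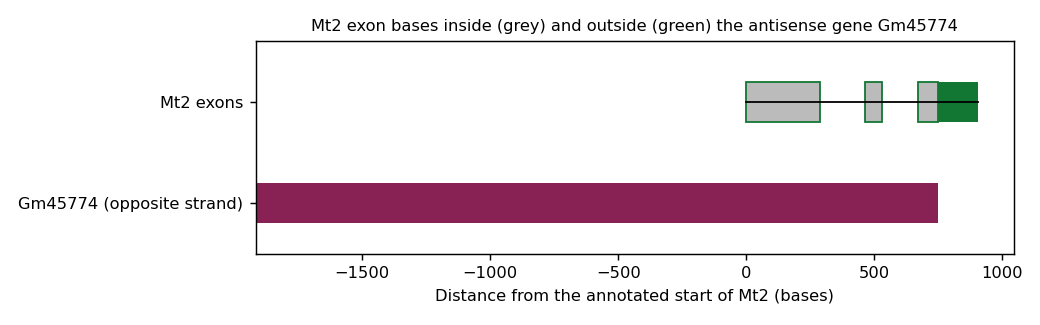
Exon bases of Mt2 and of the antisense gene Gm45774, drawn to scale as distance in bases from the annotated start of Mt2. Grey parts of the Mt2 exons lie inside Gm45774 and the green part, 156 bases at the end of the last exon, lies outside it. The line joins the Mt2 exons.

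Levels of different genes were compared only per kilobase of exon. In sham mice the order was Mt3 at 76.6 ± 9.20, Mt1 at 64.5 ± 7.63, Slc30a3 at 43.2 ± 5.80, Slc30a1 at 11.1 ± 2.39 and Slc39a14 at 3.32 ± 0.0736 CPM per kilobase (SD, n = 4 each). The ranges of Mt3 and Mt1 overlapped, and those of the other neighbours did not. In BCAS mice Mt1 was at 127 ± 26.8 and Mt3 at 82.5 ± 11.03 CPM per kilobase, with ranges that still overlapped, and Slc30a3 at 24.2 ± 11.4 overlapped with Slc30a1 at 13.01 ± 1.03 CPM per kilobase. Over all mice, Mt1 was at or above 98.1% and Mt3 at or above 97.6% of tested genes on this scale, Slc30a3 at or above 91.8%, Slc30a1 at or above 74.5% and Slc39a14 at or above 44.6%. These levels depend on the gene model, since the exons annotated for Mt1 together span the whole gene. With the length of the transcript that carries the consensus coding sequence, chosen after the values were seen, Mt1 was at 146 ± 17.3 and Mt3 at 152 ± 18.3 CPM per kilobase in sham mice. In BCAS mice the same lengths gave 288 ± 60.8 for Mt1 and 164 ± 21.9 CPM per kilobase for Mt3, and the ranges no longer overlapped, from 214 CPM per kilobase upward for Mt1 and up to 196 for Mt3.

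Ratios of genes within a library do not depend on its scaling, and 8 were planned, of which 6 could be computed. The 2 others involve Mt2, which had a count of 0 in sham mouse 2. The log2 ratio of Mt1 to Mt3 was 0.03, -0.03, 0.03 and -0.12 in sham mice 1 to 4, against 1.24, 0.47, 1.05 and 0.57 for BCAS mice 1 to 4. All BCAS mice were above all sham mice, with BCAS mice 1 and 3 highest. The mean difference was 0.85 (exact two-sided permutation test, p = 0.0286, the smallest possible, and 0.0857 after Benjamini-Hochberg adjustment over the 6 ratios). The ratio of Slc39a14 to Slc30a1 differed by 0.16 between the groups, which overlapped (exact two-sided permutation test, p = 0.514, adjusted p = 0.771). Without single mice this difference ranged from 0.006 to 0.29.

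Mt1 was also set against Aldh1l1, an astrocyte enzyme. Of 12 astrocyte markers, 6 rose, 0 fell and 6 did not pass, beside 19.2% and 12.8% of all tested genes that rose and fell, with a median log2 fold change of 0.37 beside -0.01 over all tested genes and a range from -0.20 (Slc7a10) to 1.65 (Aqp4). Their summed level was 6528 to 7725 CPM in sham and 7606 to 9256 CPM in BCAS mice, which overlapped, although the groups separated with the library size alone, and none of them was at 0. The log2 ratio of Mt1 to Aldh1l1 rose from 0.41 ± 0.17 to 0.86 ± 0.11 (SD, n = 4 each, exact two-sided permutation test, p = 0.0286, adjusted p = 0.0857), with all BCAS mice above all sham mice. Mt3 to Aldh1l1 was 0.43 ± 0.14 in sham and 0.02 ± 0.26 in BCAS mice, with overlapping groups (exact two-sided permutation test, p = 0.0571, adjusted p = 0.114). These directions hold for Aldh1l1 and depend on the marker, since the log2 fold change of Aqp4 was larger than that of Mt1, and those of Slc1a2 (0.02), Fgfr3 (0.05) and Slc7a10 were smaller than that of Mt3. Microglial markers rose in 12 of 12 cases, beside the same 19.2%, and their summed level was 419 to 504 CPM in sham and 1644 to 5973 CPM in BCAS mice. Of 8 tested markers of macrophages and blood leukocytes 7 rose, although 4 of the 8 reached the count needed for testing in too few sham libraries and 3 of the other 4 rose, with sums of 18.6 to 24.4 CPM in sham and 67.3 to 425 CPM in BCAS mice, and 10 of 10 fibroblast markers rose, with sums of 155 to 190 and 282 to 1068 CPM. The part of these cells in the level of Mt1 or Slc39a14 was not tested.

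Slc30a3 was set against genes of neurons. Of 12 pan-neuronal markers 8 fell, and of 10 genes of synaptic vesicles 6 fell, beside 12.8% of all tested genes, with median log2 fold changes of -0.70 and -0.74. The lists share genes, since Syt1 was on both and the vesicle gene Slc17a7 was also among the excitatory markers. Of 11 markers of excitatory cortical neurons 6 fell, with a median of -0.87. Of 9 striatal neuron markers 1 rose and 0 fell, beside 19.2% and 12.8% of all tested genes, with a median of 0.54. The striatal markers summed to 889 CPM in BCAS mouse 4, whereas the other BCAS mice, at 423 to 449 CPM, lay within the sham range. The vesicle genes summed to 9018 to 9461 CPM in sham mice and to 3120, 7870, 5993 and 5146 CPM in BCAS mice 1 to 4, so that BCAS mouse 2 was nearest to sham mice, as for Slc30a3. The log2 ratio of Slc30a3 to Slc17a7, the vesicular glutamate transporter of cortical neurons, was -3.74 ± 0.24 in sham and -3.73 ± 0.12 in BCAS mice (SD, n = 4 each, exact two-sided permutation test, p = 0.914). The ratio to Rbfox3, the gene of the neuronal nuclear protein NeuN, was -1.41 in both groups, with SDs of 0.34 and 0.31 (n = 4 each, exact two-sided permutation test, p = 1.00). Both differences, 0.01 and -0.00, were small beside the spread between mice, and leaving out single mice turned their sign, with ranges of -0.04 to 0.13 and -0.13 to 0.16. The part of neuron number in the level of Slc30a3 was not tested.

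**Figure D3:**
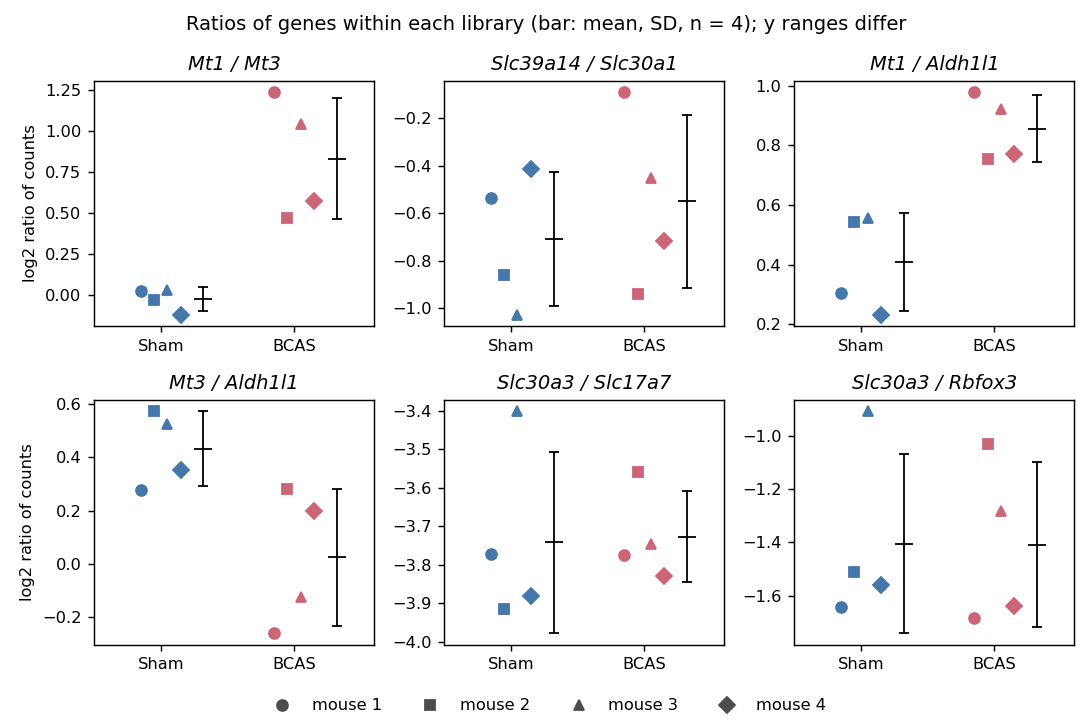
Log2 ratios of the counts of paired genes within each library, each panel with its own range. Points are mice, with the symbol giving the mouse number within its group, and bars are mean and SD (n = 4). The ratios of Mt1 to Mt3 and of Mt1 to Aldh1l1 are higher in all BCAS mice than in all sham mice, and the groups overlap in the other panels.

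The wider gene families held 4 metallothioneins, 10 ZnT and 14 ZIP genes. Mt1 was the 1 metallothionein of 2 tested that rose, and Mt4 had 2 counts in sham mouse 4 and 0 counts elsewhere. The 4 metallothionein genes lie within 43131 bases, and of the 7 annotated genes within 50000 bases of them (with Gm45774, Gm39228 and Rpl10-ps5) only Mt1 and Mt3 were tested. Of the 9 tested ZnT genes, 1 rose, 1 fell and 7 did not pass, beside 19.2% and 12.8% of all tested genes that rose and fell, with a median log2 fold change of -0.13. Slc30a7, a zinc transporter of the early secretory pathway, rose (log2 fold change 0.68, adjusted p = 0.0105) and shares 16.0% of its exon bases with Gm43106 and Gm6649 on the opposite strand. Slc30a4 fell, with a log2 fold change of -0.54 (adjusted p = 0.0190). The call was lost without sham mouse 1, 2 or 4 or BCAS mouse 4 (adjusted p = 0.0507 to 0.0550), with log2 fold changes of -0.55 to -0.48. Without BCAS mouse 2, Slc30a2 (log2 fold change -0.86, adjusted p = 0.0188) and Slc30a9 (-0.31, adjusted p = 0.0301) passed as well, and both passed with DESeq2 on all mice (adjusted p = 0.0259 and 0.0286). Slc30a2 also passed without sham mouse 3 (adjusted p = 0.0431). Slc30a8, the transporter of insulin granules, had 3 counts in sham and 6 counts in BCAS mice and was not tested. The summed ZnT level was 604 to 649 CPM in sham and 433 to 591 CPM in BCAS mice, but the groups overlapped with the library size alone.

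Among the 13 tested ZIP genes, 6 rose, 2 fell and 5 did not pass, beside the same 19.2% and 12.8%, with a median log2 fold change of 0.29. Slc39a4 reached the count needed for testing in the BCAS libraries and in only 1 sham library, so it was tested only through the group in which it was high. Among the other 12 ZIP genes 5 rose and 2 fell, with a median log2 fold change of 0.22. Slc39a4 and Slc39a1 had log2 fold changes above 1. Slc39a4, the intestinal zinc importer mutated in acrodermatitis enteropathica, had 8, 4, 17 and 1 counts in sham mice and 195, 56, 100 and 83 counts in BCAS mice. All BCAS mice were above all sham mice, and the mean rose from 0.434 ± 0.393 to 5.33 ± 2.38 CPM (SD, n = 4 each, log2 fold change 3.59, standard error 0.59, adjusted p = 0.00459). The log2 fold change was 4.33 without sham mouse 3 and 2.11 with limma on log2(CPM + 1). Slc39a1 rose from 38.0 ± 1.57 to 79.7 ± 24.7 CPM (SD, n = 4 each, log2 fold change 1.07, adjusted p = 0.00724), with a log2 fold change of 0.889 without BCAS mouse 1 and 0.997 with limma on log2(CPM + 1). Slc39a11 rose (log2 fold change 0.65, adjusted p = 0.0104) and kept its call under each alternative setting and without each mouse. Slc39a8, whose protein is the closest relative of ZIP14, rose as well (log2 fold change 0.83, adjusted p = 0.0392), but this call was lost with limma-voom (adjusted p = 0.0633) and when any mouse other than BCAS mouse 1 or 2 was left out (adjusted p = 0.0622 to 0.0900). Without BCAS mouse 1 its log2 fold change was 0.53. Slc39a13 (log2 fold change 0.33, adjusted p = 0.0463) lost its call when any mouse other than BCAS mouse 2 was left out (adjusted p = 0.0908 without sham mouse 3) and when no filter on low counts was used (adjusted p = 0.0891). Slc39a12 (log2 fold change 0.29, adjusted p = 0.0845) passed without BCAS mouse 2 (adjusted p = 0.00461) and with the library size alone (adjusted p = 0.0425). Slc39a5 had 3 to 11 counts per sham library and 4 to 7 counts per BCAS library and was not tested. Slc39a7, among the genes that did not pass, shares 80.1% of its exon bases with Gm20427 on the same strand, so its level is uncertain.

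Slc39a10, the most highly counted ZIP gene, fell from 396 ± 19.7 to 235 ± 79.1 CPM (SD, n = 4 each, log2 fold change -0.75, adjusted p = 0.0288), and the call was lost when any sham mouse or BCAS mouse 3 or 4 was left out (adjusted p = 0.0591 to 0.0771). Slc39a3 fell with a log2 fold change of -0.35 (adjusted p = 0.0308), a call that was lost with the library size alone (adjusted p = 0.0623), without a filter (adjusted p = 0.0513) and without sham mouse 1, 2 or 4 or BCAS mouse 3 or 4 (adjusted p = 0.0701 to 0.0829). The summed ZIP level was 771 to 809 CPM in sham and 641 to 756 CPM in BCAS mice, again with overlap when the library size alone was used. In all, 11 of the 24 tested family genes had an adjusted p under 0.05, beside 32.0% of all tested genes, or 10 of 23 without Slc39a4. All 24 included, the count was 5 without sham mouse 1, 2 or 4 or BCAS mouse 4, and 6 without BCAS mouse 3.

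**Figure D4:**
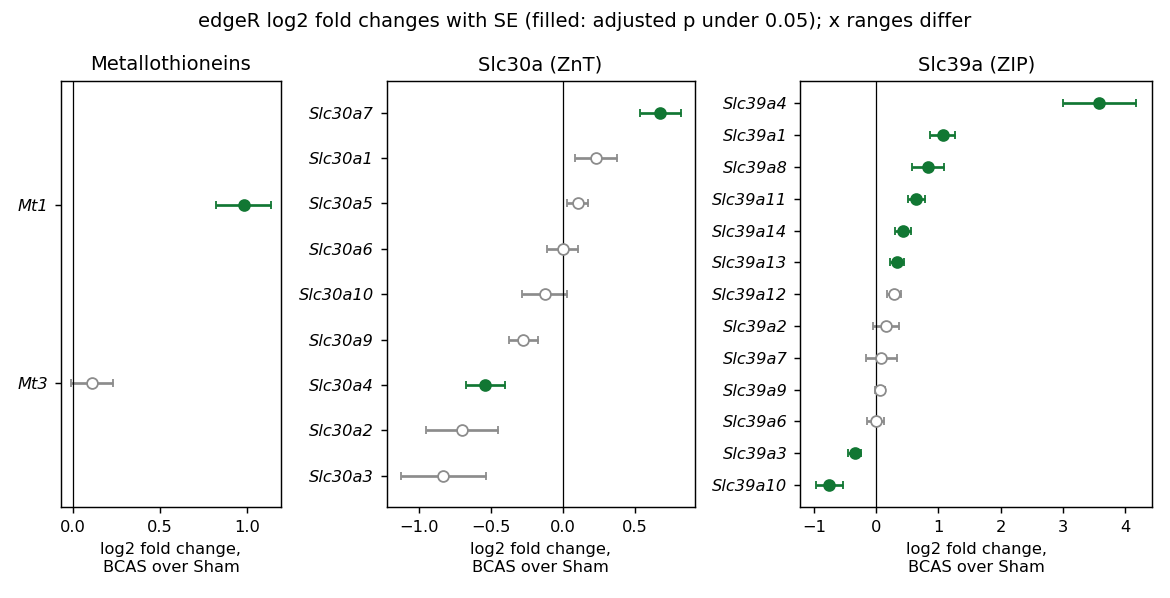
Log2 fold changes of the 24 tested metallothionein, ZnT and ZIP genes in BCAS over sham mice, with standard errors (edgeR, n = 4 mice a group). Filled points have an adjusted p under 0.05 and each panel has its own range. Slc39a4, with 1 to 17 counts per sham library, has the largest value at 3.59, and Slc30a3, Slc39a10 and Slc30a2 have the lowest.

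The genes most like Mt1 and Slc39a14 were found from the root-mean-square difference of log2 CPM, relative to the sham mean, over the 8 mice. For Mt1 these were the ribosomal protein genes Rps12 (0.0826) and Rps9 (0.0909) and the pseudogene Rps12-ps3 (0.0702), whose values are uncertain because reads of near-identical copies may be split between them. For Slc39a14 they were Idh1 (0.0344), Akirin1 (0.0462) and Atl3 (0.0494).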

How the data were processed

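RNA was extracted from the right cortex of 4 sham and 4 BCAS mice, and per the labels each library is 1 mouse. The authors trimmed the reads with Trim Galore, aligned them to mm10 with HISAT2 and deposited raw counts per gene without normalization. The table headers name featureCounts 2.0.1 and GENCODE M20, whereas the methods name version 1.6.3 and RefSeq genes. Symbols were matched for 54723 of 54752 genes. From the counts, CPM was computed with the total count times the TMM factor. Genes passing filterByExpr (minimum count 10, minimum total 15) were tested with edgeR 4.0.16 in R 4.3.3 by the quasi-likelihood F-test without covariates, with Benjamini-Hochberg adjustment over all 17136 genes. The same test was checked on simulated data. For single values and within-library ratios, exact permutation tests (two-sided) were run. DESeq2 1.42.0 and limma 3.58.1 served as alternatives, beside other scalings, filters, thinned counts, a replicate block and leaving out each mouse. Floors of 3 counts cover counting error only.

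The genes named are the 6 members, other family genes past both thresholds or untested with counts, the denominators of the ratios, the 3 tested genes of at least 5 CPM most like each called member, and genes within 50000 bases of the metallothionein cluster. Family and list genes outside this rule (Slc30a4, Slc30a7, Slc39a3, Slc39a8, Slc39a10, Slc39a11, Slc30a2, Slc30a9, Slc39a12, Slc39a13, Slc30a6, Slc39a6, Slc39a7, Mtf1, the marker genes and the copper and glucocorticoid genes) were named after their values were seen. The members and lists were chosen with earlier results of these data known. Plots used matplotlib 3.10.9 (Python 3.11.15).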

Additional observations from a re-analysis of the deposited data

How the results depend on the processing

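Mt1 kept its call under every alternative run, whereas the calls of Slc39a14 and Slc30a3 depended on the setting. Slc30a3 had a log2 fold change of -0.84 both without a filter and with DESeq2, -0.94 with limma-voom and -0.93 with limma on log2(CPM + 1), each past the threshold, and -1.16 to -0.61 without single mice. For Slc39a14 the range without single mice was 0.34 to 0.54, and the log2 fold change with the replicate block was 0.41 (edgeR, adjusted p = 0.0635). The number of members past the threshold was 1 with the replicate block and 1 to 3 without single mice, and for the wider family 7 with the block, where Slc39a3 (adjusted p = 0.0593), Slc39a8 (0.0506) and Slc39a13 (0.0957) were also lost, and 5 to 15 without single mice. The cause was not tested. Same-numbered mice did not deviate together (correlations of -0.10 to 0.00), and no BCAS mouse correlated best with the sham mouse of its own number. With so few mice this cannot settle whether the numbers pair the mice, which the labels do not say.

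Some near-zero log2 fold changes turned sign. With the library size alone the median over all tested genes was 0.08, beside -0.01 in the main fit, and this common shift by itself can turn such signs. Slc30a6 was at 0.0853 with the library size alone, 0.0158 with at least 10 counts in every library and -0.0494 to 0.0421 without single mice. Slc39a6 was at 0.0777 with the library size alone, 0.0116 with at least 10 counts and 0.00734 with thinned counts, and -0.0861 to 0.102 without single mice. Slc39a7 ranged from -0.0573 to 0.23 without single mice, and the ratios of Slc30a3 to Slc17a7 and to Rbfox3 from -0.0428 to 0.13 and from -0.13 to 0.16. The level of 3 counts, up to 0.179 CPM, limits what can be said of Mt2, Mt4 and Slc30a8.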

Other observations

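Metallothioneins also bind copper and respond to glucocorticoids, and both groups of genes were counted. Of 15 tested genes of copper handling, 7 rose and 0 fell (edgeR's quasi-likelihood test), with a median log2 fold change of 0.55, beside 19.2% and 12.8% of all tested genes. Steap4 and Steap3, metalloreductases, had log2 fold changes of 4.57 and 1.91 (adjusted p = 0.0105 and 0.0156). Cp, the copper-binding ferroxidase ceruloplasmin, rose from 21.5 to 127 CPM (log2 fold change 2.57, adjusted p = 0.00688). The copper-transporting ATPase gene Atp7a rose by a log2 fold change of 1.26 (adjusted p = 0.0115). The summed level was 267 to 279 CPM in sham and 282 to 631 CPM in BCAS mice, and Sco2 was listed at 0.

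Of 15 glucocorticoid-responsive genes, 7 rose, 1 fell and 7 did not pass, beside 19.2% and 12.8% of all tested genes that rose and fell, with a median log2 fold change of 0.33. Sgk1 (1.09, adjusted p = 0.0105) and Fkbp5 (0.77, adjusted p = 0.00729) rose on the log2 scale, and Klf9 fell, with a log2 fold change of -0.57 (adjusted p = 0.0178). Log2 fold changes in this list ran from -0.81 (Zbtb16, which did not pass) to 1.70 (Plin4). Tsc22d3 and Per1, which respond to glucocorticoids in many tissues, had log2 fold changes of -0.42 and -0.12 and did not pass. The summed levels of the groups overlapped.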
